A study of Mus musculus with 59 samples.

Results

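Scgb3a1 encodes a small secreted protein of the secretoglobin family, and its transcript level was followed here across the 8 groups of the study. It is 1 of 47643 gene symbols in the table of 59 RNA-seq libraries, and it was chosen by its measured TPM, which was high in cachectic muscle. Its own differences between groups are therefore descriptions and carry no test. The genes whose levels followed Scgb3a1 most closely within groups were also collected, and these are called companions below.

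The mice were 4-month-old female NCI Ath/nude (athymic) mice with a human melanoma xenograft in the flank, either cachectic (MAST360B), which causes muscle wasting, or non-cachectic (MAST552A). Each kind of melanoma was 1 patient-derived line, so cachexia and the line cannot be told apart. Diaphragm groups received intraperitoneal rFibcd1, recombinant Fibcd1, a secreted protein that the study examined for its effect on myofiber size, or mock injections (BSA in PBS). Of the diaphragm libraries, 10 were from cachectic mice with mock and 10 from cachectic mice with rFibcd1, and 9 and 10 were from the corresponding non-cachectic mice. Tibialis anterior (TA) and soleus (SOL) muscles came from mice with the cachectic or the non-cachectic melanoma (n = 5 in each of 4 groups), and their labels name no injection. Because the groups hold separate libraries that no label ties to individual mice, p-values measure only the spread between these libraries.

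Secretoglobins are small secreted proteins, best known from the fluid that lines the airways, where club cells release several of them. Scgb3a1, also called HIN-1 or UGRP2, is made by airway epithelium, and its human counterpart is a candidate tumour suppressor that is silenced by promoter methylation in carcinomas and has been reported to restrain AKT signalling. In cachexia, muscle responds to glucocorticoids and to cytokines of the interleukin-6 family, and the AKT pathway and muscle ubiquitin ligases set the balance of protein synthesis and breakdown.

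The gene lies on mouse chromosome 11, 49663610 to 49665118 on the forward strand (GENCODE M21, GRCm38), as ENSMUSG00000064057.12. It has 2 annotated transcripts, of 3 exons (493 exon bases, 104 codons) and 4 exons (598 exon bases, 94 codons). No protein-coding gene overlaps it. The nearest protein-coding neighbours are Flt4, 10871 bases before it, and Cnot6, 6385 bases after it. Within the diaphragm groups the level of Flt4 had a Pearson r of 0.04 with that of Scgb3a1, and Cnot6 an r of -0.06. Beyond them on the side of Flt4 lie olfactory receptor genes, and on the side of Cnot6 lie Gfpt2, Mapk9, Rasgef1c and Rnf130. Over the neighbours with an r, its value ranged from -0.15 to 0.37.

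The 250 bases before the RefSeq start are shown because the level of the gene differed so widely between libraries, chr11:49663345-49663594 (GRCm38.p6, forward strand, from RefSeq), with letters that match a searched motif in capitals.

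Scgb3a1 upstream window: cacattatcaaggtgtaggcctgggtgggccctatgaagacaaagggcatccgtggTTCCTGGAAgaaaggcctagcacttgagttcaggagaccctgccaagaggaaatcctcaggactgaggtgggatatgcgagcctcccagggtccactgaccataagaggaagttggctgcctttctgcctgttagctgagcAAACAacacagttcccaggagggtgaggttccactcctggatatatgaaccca

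The window holds 1 match to the STAT palindrome TTCNNNGAA, written TTCCTGGAA, at 194 to 186 bases before the start. Of 32851 windows of the same length before RefSeq starts, 7.02% hold this palindrome. It also holds 1 match to the forkhead core AAACA, at 53 to 49 bases before the start, a string found in 46.4% of windows. The letters AGAACA of the glucocorticoid receptor site (16.1% of windows) and TTGCG of the C/EBP site (14.5% of windows) are not in this window on either strand. The window is 53.6% G and C and has 2 CG dinucleotides, against a median of 6 over all windows. These are matches of letters only, and no binding was measured.

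Levels are given as TPM, which scales each library to the same total and is corrected for transcript length. Sequencing depth is not kept by TPM and is unknown here. Genes above 0 numbered 17950 to 19456 per diaphragm, 16436 to 17673 per TA and 17514 to 18191 per SOL library. Mitochondrial transcripts took a mean of 38.1% of TPM in cachectic and 47.5% in non-cachectic mock diaphragm, 38.8% and 48.5% in TA, and 30.5% and 41.1% in SOL, which raises the TPM of other genes in the cachectic libraries. The libraries also fall into 2 states by the pseudogene Pcna-ps2, which is above 1 TPM in the high state. In the limb muscles the high state held all 10 cachectic and none of the non-cachectic libraries, so state and melanoma cannot be told apart there.

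Scgb3a1 was high in every cachectic group and near or below 1 TPM in most non-cachectic libraries. In the cachectic mock diaphragm its lowest level was 3.35, its median 25.2 and its highest 56.7 TPM (mean 24.7 ± 15.1, SD, n = 10). For mock diaphragm without cachexia these were 0.326, 0.994 and 2.49 TPM (mean 1.12 ± 0.651, SD, n = 9). All 10 cachectic libraries lay above the highest non-cachectic one, and the ratio of the means was 21.99. By mean TPM, Scgb3a1 ranked 3334 of 21924 genes above 0 in the cachectic group and 12452 of 21692 in the non-cachectic group.

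In TA the cachectic libraries were at 5.70, 10.8, 23.4, 15.4 and 4.61 TPM. The non-cachectic TA libraries were at 0.483, 0.322 and 0.163 TPM, and in the other 2 the gene was listed at 0. In SOL the cachectic libraries were at 6.37, 6.95, 16.7, 12.7 and 5.39 TPM. The non-cachectic SOL libraries were at 0.449, 0.0917, 0.0934, 0.473 and 0.283 TPM. The groups did not overlap in either muscle, and the lowest cachectic library stood at 4.61 against 0.483 TPM for the highest non-cachectic one in TA, and at 5.39 against 0.473 TPM in SOL. Mean levels were 11.97 ± 7.70 TPM (SD, n = 5) in cachectic TA and 9.63 ± 4.89 TPM (SD, n = 5) in cachectic SOL, 34.7 times the non-cachectic mean in SOL.

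With rFibcd1, the cachectic diaphragm held libraries with low and with high Scgb3a1. The lowest level was 1.56, the median 6.65 and the highest 26.6 TPM (mean 10.9 ± 10.0, SD, n = 10). In 5 libraries it was between 1.56 and 3.65 TPM, and in the other 5 between 9.66 and 26.6 TPM. In the cachectic mock group 1 library was below 5 TPM. The non-cachectic rFibcd1 libraries ranged from 0.169 to 1.40 TPM with a median of 0.528 (mean 0.627 ± 0.385, SD, n = 10). All 10 cachectic rFibcd1 libraries lay above the highest of these, the lowest only narrowly (1.56 against 1.40 TPM), and 6 of the 10 lay above the highest non-cachectic mock library. The cachectic mock mean was 2.27 times the cachectic rFibcd1 mean, and 4 of 10 mock libraries lay above the highest rFibcd1 library.

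**Figure D1:**
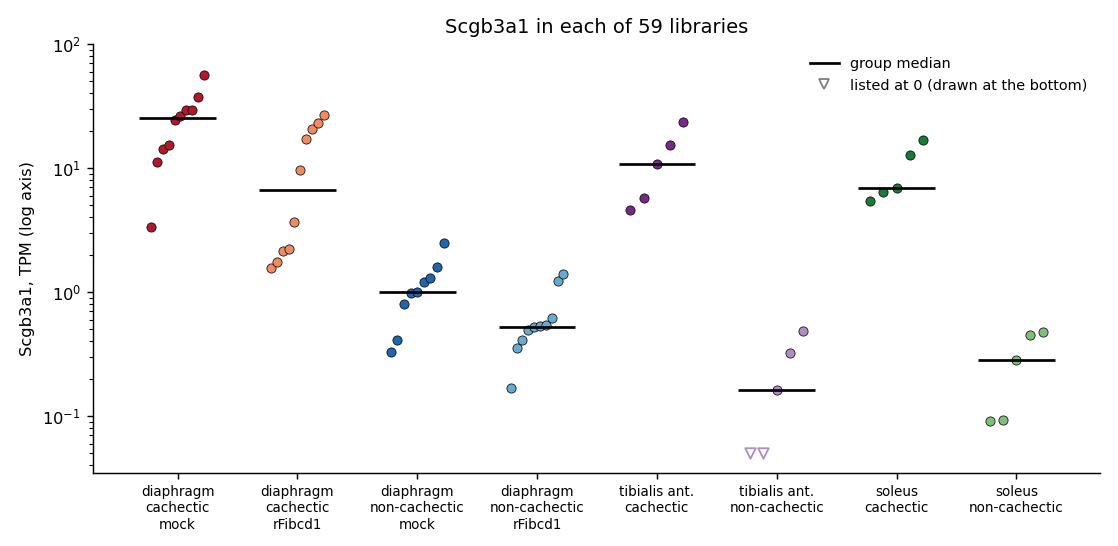
Scgb3a1 level in each of the 59 libraries (points, TPM on a log axis) by group, with the group median as a bar and 2 libraries listed at 0 drawn as open triangles at the bottom. The cachectic groups lie above the non-cachectic groups of the same muscle and injection, and the cachectic rFibcd1 diaphragm spreads from 1.56 to 26.6 TPM.

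By median level, the order was cachectic mock diaphragm (25.2 TPM), cachectic TA (10.8), cachectic SOL (6.95), cachectic rFibcd1 diaphragm (6.65), non-cachectic mock diaphragm (0.994), non-cachectic rFibcd1 diaphragm (0.528), non-cachectic SOL (0.283) and non-cachectic TA (0.163). Neighbours in this order overlapped in range at every step.

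On the scale of log2(TPM + 1), which makes changes at low TPM look smaller than they are, the cachectic minus non-cachectic difference of Scgb3a1 was 3.38 (SE 0.415) in the mock diaphragm and 2.31 (SE 0.404) in the rFibcd1 diaphragm. It was 3.25 (SE 0.342) in TA and 2.95 (SE 0.258) in SOL. The rFibcd1 minus mock difference in cachectic mice was -1.43 (SE 0.404). The median difference of all genes was 0.20 in the mock diaphragm, 0.08 in the rFibcd1 diaphragm, 0.41 in TA and 0.09 in SOL (all given as descriptions, with no test).

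The spread of Scgb3a1 among libraries of 1 group was wide. The highest library was at 16.9 times the lowest in the cachectic mock diaphragm, 17.0 times in the cachectic rFibcd1 diaphragm, 5.08 times in cachectic TA and 3.10 times in cachectic SOL. On the log2(TPM + 1) scale the SD was 1.04, 1.44, 0.88 and 0.63 in these groups. Among genes of similar level the SD was smaller for 98.2% in the cachectic mock diaphragm, 97.5% in the cachectic rFibcd1 diaphragm, 97.7% in cachectic TA and 94.5% in cachectic SOL. The SD was 0.43 in the non-cachectic mock and 0.31 in the non-cachectic rFibcd1 diaphragm.

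The state of the libraries by Pcna-ps2 went with low Scgb3a1 in some groups and not in others. In the cachectic mock group 9 high-state libraries had 11.2 to 56.7 TPM (median 26.2), and the 1 low-state library had 3.35 TPM, the lowest of the group. In the cachectic rFibcd1 group 8 high-state libraries had 1.56 to 26.6 TPM (median 2.94), and the 2 low-state libraries had 9.66 and 20.8 TPM, among the higher levels. In the non-cachectic mock group the 3 high-state libraries (1.30 to 2.49 TPM) all lay above the 6 low-state ones (0.326 to 1.21 TPM). With rFibcd1 in non-cachectic mice the ranges were 0.352 to 1.40 TPM for 6 high-state and 0.169 to 0.521 TPM for 4 low-state libraries.

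Without cachexia, the rFibcd1 minus mock difference of Scgb3a1 in the diaphragm was -0.36 (SE 0.415, 95% interval -1.20 to 0.48), and the ranges of the groups overlapped. It is given as a description, since the non-cachectic mock libraries were also an arm of a contrast by which the gene was chosen, and the gene passed the filter on low values through the cachectic groups. The SD within these groups was below that of the cachectic libraries, which share their estimate of spread with them in this fit.

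Between muscles of non-cachectic mice, the diaphragm exceeded TA by 0.79 on the log2(TPM + 1) scale (95% interval 0.41 to 1.18) and SOL by 0.69 (95% interval 0.30 to 1.07). TA minus SOL was -0.10 (95% interval -0.54 to 0.33). These too are descriptions, since the libraries were the low arms of the contrasts by which the gene was chosen, and since Scgb3a1 did not pass a filter at 1 TPM in them. The diaphragm mice had mock injections, and the limb muscle labels name none, so muscle and injection cannot be told apart.

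Airway genes were examined next, since Scgb3a1 is best known there. Of 69 symbols that start with Scgb, 66 were listed at 0 in all 59 libraries and 3 were above 0 in any. Scgb3a1 alone reached 1 TPM. Scgb1a1, the main club cell secretoglobin, was above 0 in 14 libraries and reached 0.647 TPM, and Scgb1c1 was above 0 in 8 libraries and reached 0.368 TPM. Scgb3a2, the closest relative of Scgb3a1, was listed at 0 in all 59 libraries.

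Of 11 airway and lung epithelium markers, 10 never reached 1 TPM in any library. The surfactant protein genes Sftpc and Sftpb reached 0.249 and 0.745 TPM, and Foxj1, of ciliated cells, 0.258 TPM. Cyp2f2, a cytochrome of club cells that other tissues also express, was the exception, at 0.197 to 71.6 TPM. The 11 markers summed to 0.661 to 6.21 TPM in the cachectic and 0.235 to 71.9 TPM in the non-cachectic mock diaphragm, and to 0.267 to 2.31 TPM in cachectic TA and 0.333 to 0.715 TPM in non-cachectic TA. In SOL they summed to 2.03 to 16.3 TPM in cachectic and 1.54 to 7.14 TPM in non-cachectic libraries. Within the diaphragm groups the sum had an r of 0.09 with Scgb3a1, and the sums of other marker lists had r of -0.21 (epithelium), -0.08 (mesothelium), 0.18 (adipocytes), -0.08 (fibroblasts and tendon), 0.07 (endothelium) and 0.16 (nerve and Schwann cells). Mesothelial markers summed to 60.1 to 310.4 TPM in the diaphragm and to at most 5.58 TPM in the limb muscles, where Scgb3a1 was also high with the cachectic melanoma. The 8 skeletal muscle markers summed to 41439 TPM or more in every library. Some lists moved between the melanomas. In SOL the fibroblast and tendon markers summed to 229 to 641 TPM in cachectic and 849 to 1188 TPM in non-cachectic libraries, and the skeletal muscle markers to 69610 to 92865 and 56812 to 67692 TPM, with no overlap in either list. The skeletal muscle markers went the other way in TA, with medians of 63628 TPM (44961 to 70740) in cachectic and 80231 TPM (66999 to 81066) in non-cachectic libraries, and were at medians of 65997 and 51521 TPM in the mock diaphragm, with ranges that overlapped in both. In the mock diaphragm the adipocyte markers had medians of 842 TPM in cachectic and 299 TPM in non-cachectic libraries, with ranges that overlapped. In TA the median sums in cachectic and non-cachectic libraries were 334 and 192 TPM for fibroblast and tendon, 127 and 87.9 TPM for endothelium, and 39.2 and 20.1 TPM for nerve and Schwann cell markers, all with ranges that overlapped. Their part in the differences between the melanomas was not tested. In these bulk samples fewer cells of a type and less RNA per cell cannot be told apart.

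The companions were chosen in the 39 diaphragm libraries as the 10 highest and 5 lowest Pearson correlations with Scgb3a1 after the 4 group means were removed, among 9055 genes with a mean of at least 5 TPM. The libraries share their scaling, their RNA composition and the state described above, so these values are a description and have no test. Over all 9055 genes the median r was 0.05, with 90% of genes between the 5th percentile of -0.36 and the 95th of 0.60. Atp9a, a P4-type ATPase of endosomal membranes, came first (r = 0.88), followed by Tprgl, a presynaptic vesicle protein (0.88), Cyb561, a transmembrane cytochrome (0.84), and Apod, which encodes the lipid carrier apolipoprotein D (0.84). Fam179a (0.83), the lysosomal membrane protein gene Lamp1 (0.83), the glycogen primer gene Gyg (0.81), the semaphorin gene Sema6b (0.81), Bex1 (0.81) and the gamma-glutamyltransferase gene Ggt5 (0.80) completed the high list. Anapc5, at 0.79, was the first gene outside it.

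The 5 low companions were Cryba4, a lens crystallin gene (r = -0.83), 9030617O03Rik (-0.78), Magix, a PDZ domain protein gene (-0.75), Tecrl (-0.74) and Ybx2, known for RNA binding in germ cells (-0.73). Sbk2, at -0.72, was the first outside. The mitochondrial share of TPM had an r of -0.59 with Scgb3a1 within groups, the summed skeletal muscle markers 0.53, the state 0.17 and the number of genes above 0 -0.13. The part of the first 2 in the companion list was not tested beyond rescaling the libraries, after which 7 of 10 high and 1 of 5 low companions were chosen again.

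**Figure D2:**
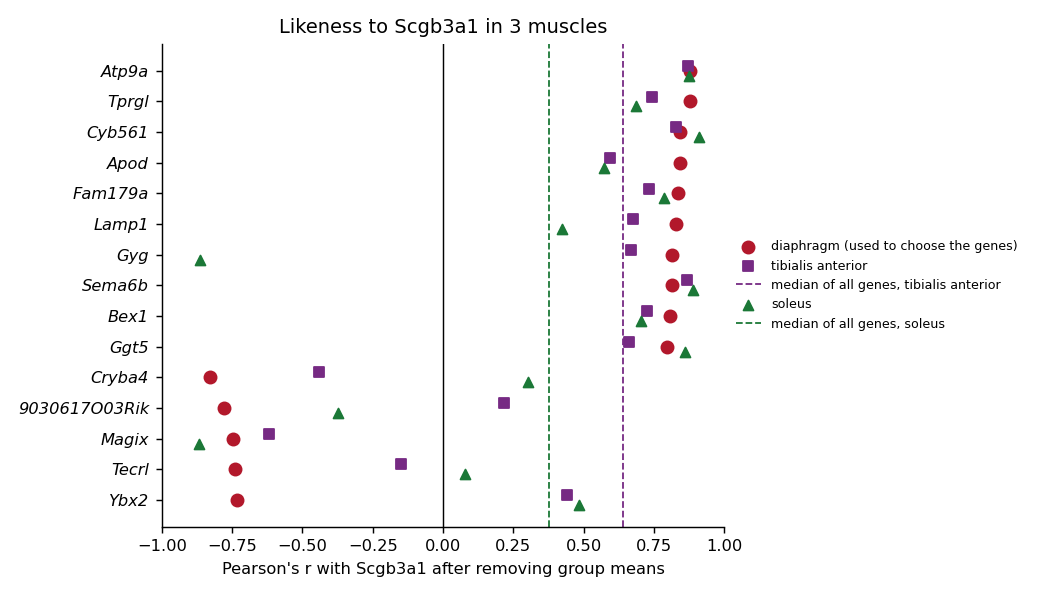
Pearson r of each companion gene with Scgb3a1 on log2(TPM + 1) values within groups, in the diaphragm (39 libraries, used for the choice), TA and SOL (10 libraries each), with the median r of all genes in TA (0.64) and SOL (0.38) as dashed lines. The 10 high companions lie between 0.80 and 0.88 in the diaphragm, and Gyg lies at -0.86 in SOL.

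For 9 of 10 high and 4 of 5 low companions, r was larger in size in both cachectic groups than in both non-cachectic groups. The choice itself favoured this. On the log2(TPM + 1) scale the SD of Scgb3a1 was 1.04 and 1.44 in the cachectic and 0.43 and 0.31 in the non-cachectic groups. The cachectic libraries therefore weighed most in the pooled r used for the choice. The share of all genes with this pattern was not counted. The exceptions were Tprgl, with 0.85 in the cachectic mock and 0.88 in the non-cachectic mock diaphragm, and 9030617O03Rik, with -0.71 and -0.72. For Atp9a, r was 0.88 in the cachectic mock and 0.92 in the cachectic rFibcd1 diaphragm, and 0.60 and 0.45 in the non-cachectic mock and rFibcd1 diaphragm. For Cryba4 it was -0.96 and -0.90 in the cachectic groups, and 0.53 and -0.26 in the non-cachectic ones. Cyb561 gave 0.89 and 0.92, against 0.33 and 0.25. No difference between groups was tested. In the non-cachectic libraries Scgb3a1 itself was low, at 0.326 to 2.49 TPM with mock and 0.169 to 1.40 TPM with rFibcd1.

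Atp9a was at 67.7 to 175 TPM in the cachectic mock and 26.3 to 33.7 TPM in the non-cachectic mock diaphragm. In TA it was at 36.9 to 89.7 TPM in cachectic and 8.81 to 10.8 TPM in non-cachectic libraries, and in SOL at 86.4 to 171 and 30.3 to 33.8 TPM. In these 3 comparisons the groups did not overlap. With rFibcd1 they did, at 30.3 to 115 TPM in the cachectic and 26.7 to 38.6 TPM in the non-cachectic diaphragm, where 2 of 10 cachectic libraries lay at or below the highest non-cachectic one. The difference was 1.67 in the mock diaphragm (SE 0.194, limma adjusted p 1.37e-06), 2.47 in TA (SE 0.205, limma adjusted p 1.52e-05) and 1.69 in SOL (SE 0.164, limma adjusted p 7.15e-05) on the log2(TPM + 1) scale.

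**Figure D3:**
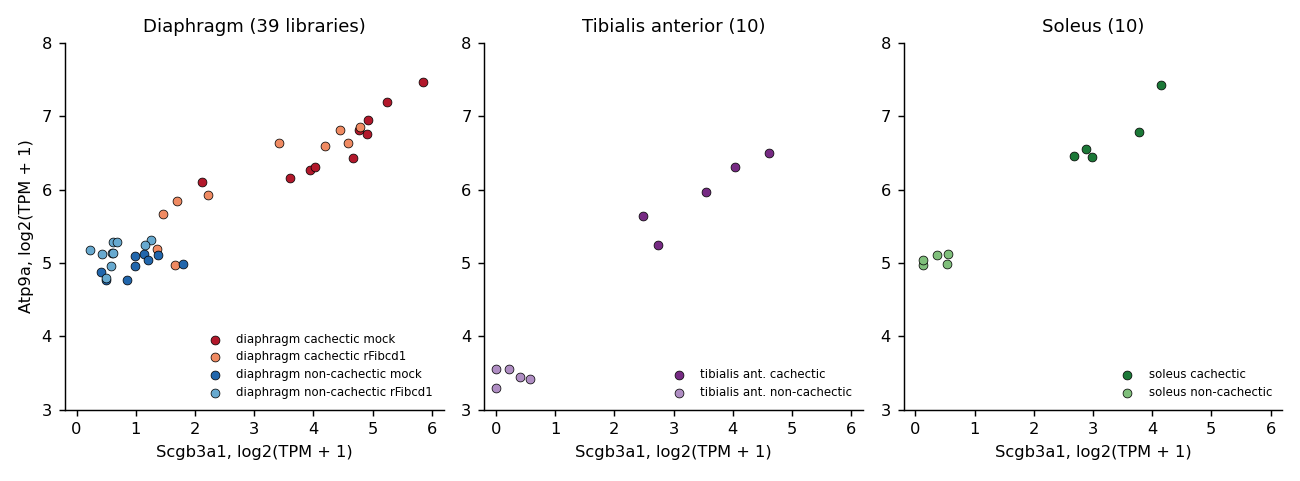
Scgb3a1 against Atp9a in each library, both as log2(TPM + 1), with panels by muscle and colours by group. Cachectic libraries with more Scgb3a1 had more Atp9a, and the non-cachectic libraries cluster at low levels of both genes.

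Between the melanomas, the companions chosen within groups were then compared. The choice removed the group means but used the same diaphragm libraries, so these are not independent tests there. The mitochondrial share of TPM had an r of -0.59 with Scgb3a1 within groups. It also differed between the melanomas, with means of 38.1% in cachectic and 47.5% in non-cachectic mock diaphragm. Its part in the calls was not tested beyond the rescaling given below. The choice also asked for a mean of 5 TPM over all 39 libraries, which 4 companions met only through the melanoma in which they were higher. These were Fam179a (mean 13.5 TPM in cachectic and 4.75 TPM in non-cachectic diaphragm), Sema6b (9.07 and 3.75 TPM), Ggt5 (8.52 and 4.15 TPM) and Cryba4 (3.84 and 7.34 TPM), and they are left out of the counts in the diaphragm.

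In the mock diaphragm 7 of the 7 remaining high companions were higher in cachectic mice, where 36.7% of all genes with a mean of 5 TPM in each melanoma were called higher, and 4 of 4 low companions were lower, where 2.45% were called lower. The median difference of these high companions was 1.04, against 0.21 for all such genes. The mean of Apod was 193 ± 147 TPM (SD) over 10 cachectic libraries and 20.3 ± 2.87 TPM (SD) over 9 without cachexia. It rose by 2.85 (limma adjusted p 3.8e-06), and ranged from 61.9 to 477 TPM in cachectic against 14.3 to 23.1 TPM in non-cachectic libraries. Cyb561 (1.20) and Bex1 (1.04) also rose, and Tprgl (0.54), Lamp1 (0.50) and Gyg (0.48) rose less. Tecrl fell from 14.4 ± 4.04 to 5.41 ± 1.90 TPM (SD), by 1.28 on the log2 scale, and Ybx2 by 1.11, Magix by 0.77 and 9030617O03Rik by 0.69.

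Over all genes tested, median-ratio scaling took the median difference from 0.20 to 0.01 and the share of called genes that were higher from 92.0% (4143 of 4501) to 46.8% (992 of 2121). After it, 3 of the 7 high companions were called (Apod, Atp9a and Cyb561), where 7.39% of genes with a mean of 5 TPM in each melanoma were higher, and 4 of 4 low companions, where 9.35% were lower. With state as a term, 6 of 7 and 4 of 4 were called (15.6% and 2.97% of such genes), and Bex1 was not (limma adjusted p 0.0808).

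With rFibcd1 in both groups, 6 of these 7 high companions were higher in cachectic mice (9.25% of genes with a mean of 5 TPM in each melanoma called higher) and 4 of 4 low companions lower (1.98% called lower). Gyg was the one not called, at 323 ± 79.3 and 257 ± 10.52 TPM (SD, n = 10 each; limma adjusted p 0.0621). The difference of Apod was 1.85 (limma adjusted p 0.0028) and that of Atp9a 0.97 (limma adjusted p 0.00278). The share of all called genes that were higher was 78.3% (958 of 1223) and, after median-ratio scaling, 47.2% (568 of 1204). After it 4 of the 7 high companions were called (not Gyg, Lamp1 and Tprgl, with 4.85% of such genes higher) and 4 of 4 low companions (4.97% lower). The calls depend on the test, since Dunn's test called 0 of these 11 companions here and 0 of all genes, with all 11 and 18.7% of all genes at an unadjusted p under 0.05. In the mock diaphragm it called all 11, where limma called 33.5% of all genes and the share by Dunn's test is not given here.

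In cachectic mice, 0 of 15 companions were called for rFibcd1 against mock (limma, 0.0447% of all genes called), with 6 at an unadjusted p under 0.05 (10.5% of all genes). The median difference of the high companions was -0.38, against 0.03 for all genes. Apod was at 103 ± 76.0 TPM with rFibcd1 and 193 ± 147 TPM with mock (SD, n = 10 each; limma adjusted p 0.338), and Atp9a at 75.0 ± 31.99 and 104 ± 35.5 TPM (limma adjusted p 0.314). In non-cachectic mice rFibcd1 likewise gave 0 called companions of 15 against mock (limma, 0.417% of all genes called) and 0 at an unadjusted p under 0.05 (17.4% of all genes), with a median difference of 0.08 for the high companions against 0.15 for all genes.

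In TA, Ggt5 reached 1 TPM in enough libraries only with the cachectic ones (means 3.46 and 1.06 TPM) and is not counted. Of the other 9 high companions, 9 were higher in cachectic mice, where 56.3% of genes that pass in each melanoma alone were called higher, and 2 of the 3 low companions tested were lower (Magix and Ybx2, with 3.36% of such genes called lower). The median difference of these high companions was 1.38, against 0.41 for such genes. Apod rose by 3.00 (limma adjusted p 6e-05), Fam179a by 1.88 (limma adjusted p 6.34e-05) and Sema6b by 1.53 (limma adjusted p 0.00197). After median-ratio scaling the share of called genes that were higher fell from 93.7% (6260 of 6680) to 45.6% (2043 of 4476), and 8 of these 9 high companions were called, all but Bex1 (16.9% of genes that pass in each melanoma alone called higher and 23.0% lower). The value of 9030617O03Rik was 0.34 as deposited and -0.14 after this scaling, and it was called in neither.

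In SOL 8 of 10 high companions were higher (18.0% of genes that pass in each melanoma alone called higher), with a median difference of 1.05 against 0.10 for such genes, while Gyg (0.22, limma adjusted p 0.202) and Ggt5 were not called. Of the 5 low companions, 3 were lower (6.85% of such genes called lower), 9030617O03Rik was not called and Tecrl was higher, at 27.95 ± 12.5 TPM against 14.0 ± 2.62 TPM (SD, n = 5 each; 0.87, limma adjusted p 0.0202). Tecrl thus rose in SOL and fell in the diaphragm, and whether the effect differed between these muscles was not tested. After median-ratio scaling the share of called genes that were higher was 54.3% (1820 of 3350), against 70.0% (2098 of 2999), and 8 of the 10 high companions were called, with Ggt5 called and Lamp1 not (15.5% of such genes called higher and 12.1% lower).

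**Figure D4:**
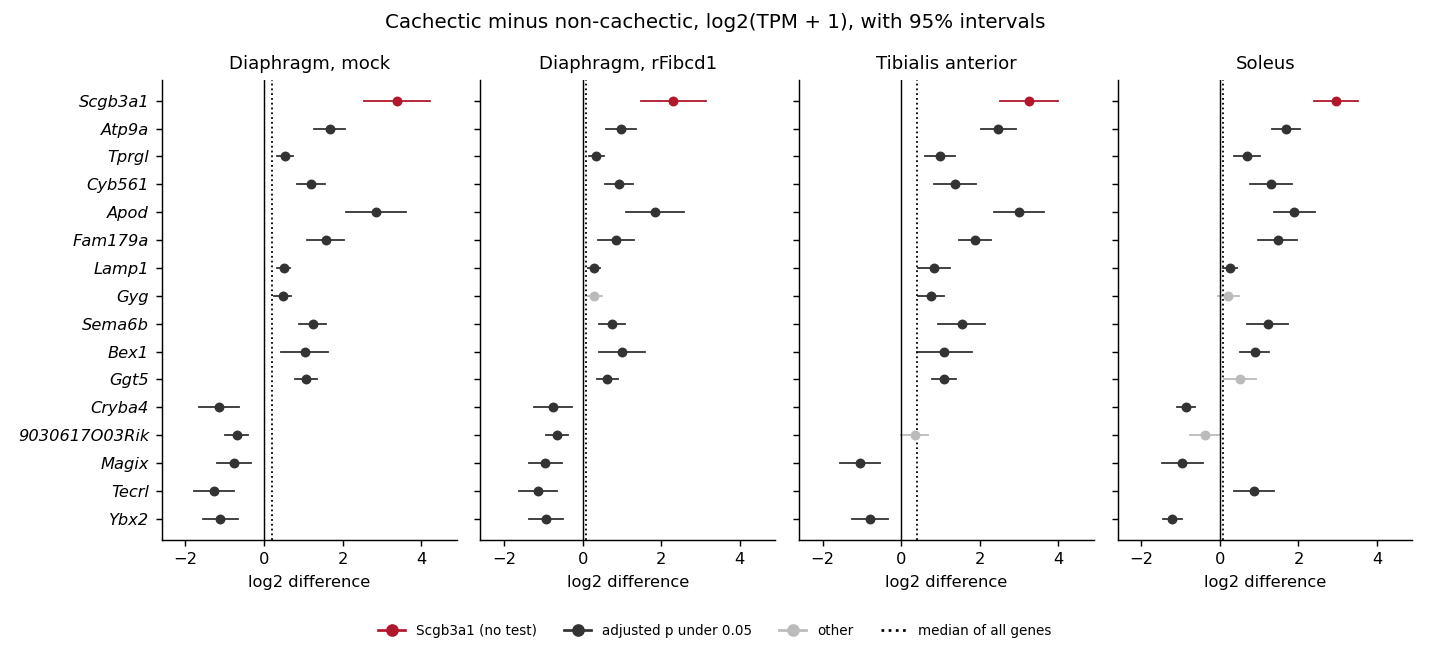
Cachectic minus non-cachectic difference of log2(TPM + 1) for Scgb3a1 and its companions, with 95% intervals, in 4 comparisons, where the dotted line is the median of all genes. Scgb3a1 (red, no test) lies at 3.38, 2.31, 3.25 and 2.95 from left to right, and genes with no point were not tested.

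Whether the companions follow Scgb3a1 in the limb muscles was tested in TA and SOL with the group means removed (n = 10 each, exact permutation within groups, two-sided, adjusted over 30 tests). Every limb library carries a number that a diaphragm library used in the choice also carries, so the labels do not show that these libraries came from other mice. No companion passed after adjustment (0 of 30, lowest adjusted p 0.0979). Unadjusted, the exact permutation p was under 0.05 for 10 of 30 by Pearson's r and for 6 by Spearman's rho. No such count was made for genes outside the list, so the 10 and the 6 have no background and are not evidence of likeness. Over the whole set of genes, r had a 95th percentile of 0.83 in TA and 0.85 in SOL. The sign was that of the diaphragm for 13 of 15 companions in TA and 11 of 15 in SOL. Among the high companions it was so for 10 of 10 in TA and 9 of 10 in SOL, with median r of 0.73 and 0.74. The median r of all genes was itself 0.64 in TA and 0.38 in SOL, and 9 of 10 high companions lay above it in each muscle.

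Atp9a had r = 0.87 (exact permutation p 0.0369) and rho = 0.74 (exact permutation p 0.0715) in TA, and r = 0.87 (exact permutation p 0.00931) and rho = 0.88 (exact permutation p 0.011) in SOL, all unadjusted. Without the 2 libraries with the Scgb3a1 level farthest from the median, r was 0.53 in TA and 0.35 in SOL. Gyg went the other way in SOL, with r = -0.86 (exact permutation p 0.0365, unadjusted) and rho = -0.89 (exact permutation p 0.0308, unadjusted), and with r = -0.61 without these 2 libraries. Over the 10 high companions, the median r without them was 0.24 in TA and 0.31 in SOL, with 7 and 8 of 10 above 0, so the relations rest in large part on those libraries. Without the cachectic TA library at 23.4 TPM of Scgb3a1 alone, the median r in TA was 0.43.

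Genes of 6 lists were described beside Scgb3a1, with 60 memberships of 53 genes. The lists are not independent of each other, since Foxo1, Foxo3, Klf15, Klhl38 and Zbtb16 are each in 2 of them and Ddit4 in 3. Metallothioneins, which bind zinc and are induced by glucocorticoids and zinc, had the highest r of these lists over the 4 diaphragm groups, 0.77 for Mt1 and 0.76 for Mt2. In the single groups Mt1 had 0.84 and 0.82 in the cachectic and -0.28 and -0.32 in the non-cachectic mock and rFibcd1 diaphragm, and Mt2 had 0.86 and 0.76 in the cachectic and 0.41 and 0.38 in these non-cachectic groups. Of all 9055 genes, 57.4% had an r above 0. Of the 14 glucocorticoid targets, 12 did, and 4 were above the 95th percentile of all genes, with a median of 0.41. Fkbp5, a co-chaperone of the glucocorticoid receptor, had the highest (0.75), with -0.21 and 0.03 in the non-cachectic mock and rFibcd1 groups. Of 17 acute-phase and interleukin-6/STAT3 genes, 16 had an r above 0 and 3 were above the 95th percentile, with a median of 0.35. Serpina3n (0.71), a protease inhibitor, and Osmr (0.67), the oncostatin M receptor, were the highest of these. In the non-cachectic mock group Serpina3n had -0.46, and 5 of the 17 genes had an r above 0 there, against 17 in the cachectic mock, 15 in the cachectic rFibcd1 and 16 in the non-cachectic rFibcd1 group.

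Of the 15 insulin/IGF1-AKT genes 12 had an r above 0 (median 0.34), from Irs1 at -0.41 to the kinase gene Akt1 at 0.62. The 5 atrophy ubiquitin ligases had a median r of 0.21, with Trim63 (MuRF1) at 0.43 and Fbxo32 (atrogin-1) at 0.21. The study named 7 genes beside Scgb3a1, of which Ddit4, Klf15, Klhl38 and Zbtb16 are also in other lists, and chose them on these samples, so they are not independent evidence of a direction. Their r ranged from -0.30 (Capza1, an actin-capping protein) to 0.61 (Arrdc2), with a median of 0.32.

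**Figure D5:**
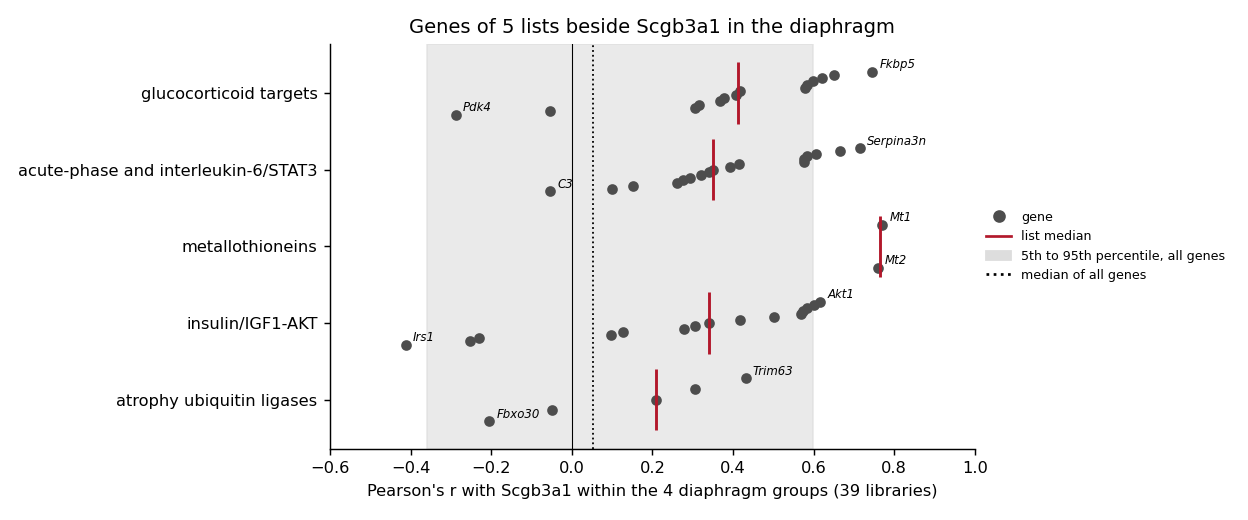
Pearson r with Scgb3a1 within the 4 diaphragm groups for the genes of 5 lists (points, without the list named by the study), with the median of each list as a red bar, the median of all 9055 genes (0.05) as a dotted line and their 5th to 95th percentile (-0.36 to 0.60) shaded. The 2 metallothioneins and Fkbp5 lie highest, and Irs1 lies lowest.

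The counts of list genes between the melanomas leave out members that met the filter of 1 TPM only through the cachectic libraries, Saa1 and Saa2 in the diaphragm, and the shares of all genes are counted the same way. In the mock diaphragm 11 of 14 glucocorticoid targets, 10 of 15 acute-phase and interleukin-6/STAT3 genes, 2 of 2 metallothioneins and 10 of 15 insulin/IGF1-AKT genes were higher in cachectic mice, where 32.1% of all genes were called higher, and none of these was lower (2.47% of all genes). Their median differences were 0.88, 0.91, 3.46 and 0.57, against 0.20 for all genes. Of the ubiquitin ligases 1 of 5 was higher (Trim63). Of the study's 7 genes, 4 were higher and Capza1 lower. Fkbp5 rose from 7.84 ± 2.84 to 68.1 ± 52.7 TPM (SD), a difference of 2.74 (limma adjusted p 8.20e-06). Akt1 rose from 46.9 ± 3.51 to 72.4 ± 18.8 TPM (0.57, limma adjusted p 0.000329). After median-ratio scaling 7 of 14 glucocorticoid targets, 5 of 15 insulin/IGF1-AKT genes and 0 of 5 ubiquitin ligases were higher, where 7.37% of all genes were higher and 8.56% lower. The counts of acute-phase and interleukin-6/STAT3 genes (10 of 15) and metallothioneins (2 of 2) did not change with this scaling or with state as a term. With state as a term, 9 of 14 glucocorticoid targets, 6 of 15 insulin/IGF1-AKT genes and 0 of 5 ubiquitin ligases were higher, where 12.8% of all genes were higher and 2.92% lower. Neither Capza1 (-0.08, limma adjusted p 0.816) nor Trim63 (limma adjusted p 0.144) was then called.

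With rFibcd1 in both groups, 3 of 14 glucocorticoid targets, 6 of 15 acute-phase and interleukin-6/STAT3 genes, 2 of 2 metallothioneins, 2 of 15 insulin/IGF1-AKT genes, 0 of 5 ubiquitin ligases and 0 of the study's 7 genes were called, all higher, where 7.46% of all genes were called higher and 1.96% lower. By Dunn's test 0 of these genes and 0 of all genes were called, against 13 of these by limma, with 22 of these and 18.7% of all genes at an unadjusted Dunn p under 0.05. After median-ratio scaling the insulin/IGF1-AKT count was 1 higher and 2 lower (Irs1 and Pik3ca), where 4.34% of all genes were higher and 4.88% lower. With state as a term it was 2 higher and the same 2 lower, where 6.85% were higher and 3.55% lower. By limma the ubiquitin ligases had 0 of 5 and the study's genes 2 of 7 at an unadjusted p under 0.05, where 3350 of all 13426 genes did. The mean of Serpina3n was 262 ± 288 TPM with and 11.9 ± 5.18 TPM without cachexia (SD, n = 10 each; limma adjusted p 0.00265). For rFibcd1 against mock, 0 of the 53 genes were called in cachectic mice and 0 in non-cachectic mice (limma), with 19 and 6 at an unadjusted p under 0.05 (10.5% and 17.4% of all genes). Without the cachectic rFibcd1 library numbered 3 the count in cachectic mice was 8, where 0.947% of all genes were called. Fkbp5 was at 38.5 ± 32.9 TPM with rFibcd1 and 68.1 ± 52.7 TPM with mock in cachectic mice (SD, n = 10 each; limma adjusted p 0.309).

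In TA 11 of 14 glucocorticoid targets were higher and 1 lower (Dusp1), with 7 of 8 acute-phase and interleukin-6/STAT3 genes, 2 of 2 metallothioneins, 10 of 14 insulin/IGF1-AKT genes and 3 of 5 ubiquitin ligases higher. Of all genes 56.3% were called higher and 3.36% lower. Left out here, as passing only through the cachectic libraries, were Il6ra, Lcn2, Saa1, Hp, Bcl3, Orm1, Igf1 and Tnni1. Of the study's other 6 genes 5 were higher and Capza1 lower. After median-ratio scaling 9 of 14 glucocorticoid targets were higher and 1 lower (Dusp1), 6 of 8 acute-phase and interleukin-6/STAT3 genes higher and 1 lower (Lifr), 5 of 14 insulin/IGF1-AKT genes higher and 1 lower (Pik3ca), and 3 of 5 ubiquitin ligases higher and 1 lower (Fbxo21), where 16.9% of all genes were higher and 23.0% lower. In SOL 8 of 14 glucocorticoid targets, 8 of 11 acute-phase and interleukin-6/STAT3 genes (without Lcn2 and Bcl3), 2 of 2 metallothioneins, 6 of 15 insulin/IGF1-AKT genes and 1 of 5 ubiquitin ligases were higher, and 1 acute-phase and interleukin-6/STAT3 gene (Lifr) was lower, where 18.0% of all genes were called higher and 6.85% lower. Of the study's 7 genes 4 were higher and Capza1 lower. Trim63, the ligase called in SOL (0.93, limma adjusted p 0.0493), was not called there after median-ratio scaling (15.5% of all genes higher and 12.1% lower). Socs3, a cytokine-induced inhibitor of STAT signalling, rose by 2.45 on the log2 scale in the mock diaphragm (limma adjusted p 1.49e-06), by 3.78 in TA (limma adjusted p 5.34e-06) and by 2.62 in SOL (limma adjusted p 4.27e-05).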

How the data were processed

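The deposited values are TPM, which the authors made from reads aligned to the mouse genome (mm10) with CLC Genomics Workbench. The annotation used is not given in the sources used here. Values were read as log2(TPM + 1). Diaphragm (4 groups in 1 fit), TA and SOL were each fitted with limma 3.58.1 in R 4.3.3 (trended eBayes, two-sided, Benjamini-Hochberg over all genes, called under 0.05), for genes with at least 1 TPM in as many libraries as the smallest group holds. Scgb3a1 passed in the diaphragm through the cachectic groups. In the fit between muscles it did not pass, so that fit had no filter, a departure from the planned design. The study's Dunn test was an alternative. Exact permutations used scipy 1.17.1, and the fits were tested on simulated data. Groups came from the labels. Column numbers were not tied to mice. Named genes were Scgb3a1, the 10 highest and 5 lowest correlations with it, fixed lists and examples from them. The members and lists were chosen with earlier results of these data known. Airway, epithelial, mesothelial, adipocyte, fibroblast and tendon, endothelial, nerve and muscle markers were summed. Alternatives were another pseudocount, no filter, median-ratio scaling, state as a term, other tests and leaving out each library.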

Additional observations from a re-analysis of the deposited data

Results flagged for a closer look

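In 8 of 128 combinations of gene and group, the highest or lowest library stood apart by Dixon's criterion, and chance gives about 1 in 20. None was a group of Scgb3a1. In cachectic TA the highest library was at 213 TPM of Tprgl (next 116), 1114 TPM of Lamp1 (next 580), 658 TPM of Gyg (next 406) and 48.3 TPM of Bex1 (next 20.3). In cachectic SOL 1 library had 171 TPM of Atp9a (next 109). Cryba4 reached 8.29 TPM in 1 cachectic mock diaphragm library (next 4.64) and 6.60 TPM in 1 non-cachectic SOL library (next 5.31). In non-cachectic SOL the lowest level of 9030617O03Rik was 5.88 TPM (next 8.34).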

How the results depend on the processing

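With a pseudocount of 0.1 the cachectic minus non-cachectic difference of Scgb3a1 was 4.22 (from 3.38) in the mock diaphragm, 3.32 (from 2.31) with rFibcd1, 5.46 (from 3.25) in TA and 4.71 (from 2.95) in SOL, beyond the spread of its libraries in TA and SOL. Leaving out single libraries gave 3.22 to 3.63 in the mock diaphragm, 2.11 to 2.49 with rFibcd1, 2.97 to 3.50 in TA, 2.74 to 3.11 in SOL, and -1.68 to -1.25 for rFibcd1 against mock in cachectic mice. In non-cachectic mice the rFibcd1 difference of -0.36 had a limma adjusted p of 0.563 (0.528 to 0.673 when single libraries were left out) and an exact permutation p of 0.0499 (added after seeing the data), and neither is an independent test, since the choice of the gene used these mock libraries. The same holds of the muscles without cachexia, where diaphragm against SOL had a limma adjusted p of 0.00559 and by Dunn's test 0.0937 (z 2.40). Between TA and SOL the difference was 0.0033 after median-ratio scaling, of opposite sign. A filter at 1 TPM gave no value for the muscles, since Scgb3a1 does not pass it. The genes of the 6 lists called between rFibcd1 and mock, 0 in each comparison, numbered 0 to 8 in cachectic mice and 0 to 3 in non-cachectic mice when single libraries were left out, with 8 without the cachectic rFibcd1 library numbered 3 (0.947% of all genes), 2 without the cachectic mock library numbered 22 (0.164%), 1 without the cachectic rFibcd1 library numbered 4 (0.135%) and, in non-cachectic mice, 3 without the cachectic rFibcd1 library numbered 11 (1.26%). Of the 10 high companions, 5 were chosen again by Spearman's rho, 0 from the 10 cachectic mock libraries alone and 6 without the libraries whose number a limb library carries (added after seeing the data). Between the melanomas, leaving out single libraries gave 11 called companions in the mock diaphragm (of 11 counted), 8 to 11 with rFibcd1, 11 in TA and 10 to 13 in SOL, and median-ratio scaling gave 7 in the mock diaphragm. These counts pool high and low companions. The main fits called 33.5% of all genes in the mock diaphragm, 9.11% with rFibcd1, 60.2% in TA and 25.1% in SOL. After median-ratio scaling 2121 of 13426 genes were called in the mock diaphragm. The shares of all genes without single libraries are not given here. By Dunn's test (diaphragm only), 11 companions and 34 list genes were called in the mock diaphragm (33 by limma) and 0 companions and 0 list genes with rFibcd1 (10 and 13 by limma). In these comparisons limma called 33.5% and 9.11% of all genes. With rFibcd1 Dunn's test called 0 of all genes, and its share in the mock diaphragm is not given here. Dunn's test for these counts, and leaving out members that passed a filter through 1 melanoma only, were added after seeing the data.

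Column numbers recur across muscles. The correlation of same-numbered libraries was -0.03 to 0.63, not above 0.1 in every pair. Over the pairs of muscles in each melanoma, its median was 0.27 to 0.40, against -0.14 to -0.05 for libraries of other numbers. The labels tie no number to a mouse, so the main results did not take the numbers as pairs. That 25 of 30 libraries correlated best with their own number is a hint of pairing from the data, not from the design. With the number as a replicate block (15 libraries), the diaphragm exceeded TA by 0.64 (limma adjusted p 0.00256) and SOL by 0.54 (limma adjusted p 0.0111), and TA minus SOL was -0.10 (limma adjusted p 0.597). These are not independent tests either, since the choice of the gene used these libraries and Scgb3a1 did not pass the filter in them. TPM keeps no depth, so how far low levels of Scgb3a1 in non-cachectic muscle differ from 0 is unknown.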

Other observations

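Scgb3a1 levels in libraries that carry the same column number in different muscles were set side by side, with the group means removed (n = 10, 5 per melanoma). This treats a number as a pair, which the labels do not state. Same-numbered libraries also correlated over 9660 genes, and whether Scgb3a1 went beyond that was not tested. Diaphragm and TA had r = 0.91 (exact permutation p 0.00958, 0.0263 adjusted over the 3 pairs of muscles) and rho = 0.73 (exact permutation p 0.0688, adjusted 0.14). Without the 2 farthest libraries r was 0.77 (exact permutation p 0.106, unadjusted). TA and SOL had r = 0.88 (exact permutation p 0.0175, adjusted 0.0263) and rho = 0.74 (exact permutation p 0.0932, adjusted 0.14), and r = 0.42 without the 2 farthest (exact permutation p 0.281, unadjusted). Diaphragm and SOL had r = 0.75 (exact permutation p 0.0938) and rho = 0.65 (exact permutation p 0.141), and r = 0.06 without the 2 farthest (exact permutation p 0.871, unadjusted). The libraries numbered 8 had the highest Scgb3a1 of the cachectic mock diaphragm, TA and SOL groups, at 56.7, 23.4 and 16.7 TPM. The labels do not say whether a number marks a mouse.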
